A study of Saccharomyces cerevisiae with 18 samples.

Results

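The expression difference between the mutant CM1 and its parent W303-1A, a laboratory strain of the budding yeast Saccharomyces cerevisiae, was measured in cultures grown without added ethanol. It rests on 6 of the 18 microarrays of the series, 3 of CM1 and 3 of W303-1A, and on 5650 named genes. Its standard errors and p-values draw on the spread of all 18. The series titles describe CM1 and the second mutant, SM1, as ethanol-tolerant; how either was made, and whether each is 1 clone, is not given in the sources used here. The 18 arrays fall into 6 groups of 3 separate cultures, W303-1A, SM1 and CM1, each at 0 % and at 6.5 % (v/v) ethanol in the medium. All were inoculated from unstressed cultures in late exponential growth, and RNA was taken from equal numbers of cells. The growth phase at harvest is not given in the sources used here for any group. Each array carried the labelled RNA of 1 culture beside that of a reference pool, made from the 3 W303-1A cultures grown at 0 % ethanol. The 3 W303-1A arrays without ethanol therefore compare each culture with a pool that contains it. The arrays give ratios and no levels, so whether the cells held transcripts of a given cell type could not be read from them.

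Fermenting yeast breaks glucose down through glycolysis to pyruvate, which pyruvate decarboxylase turns into acetaldehyde and alcohol dehydrogenase reduces to ethanol. Genes of the lower part of glycolysis are among the most strongly transcribed in this organism, and Gcr1, Gcr2, Rap1 and Tye7 are their known activators. A side branch from the middle of the pathway makes glycerol, which uses up excess NADH.

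Replicate 1 of every group was labelled with the dyes exchanged, and its ratio was turned in sign so that a positive value means more RNA in the culture than in the pool. The labels give the dyes but not the direction of the deposited ratio, so this reading is likely rather than settled. As deposited, the CM1 minus W303-1A difference of the swapped pair correlated across genes at r = -0.29 with the mean of both normally labelled pairs, which correlated with each other at r = 0.39. Of the 55 genes that passed the test on the normally labelled arrays alone, 48 had the opposite sign on the swapped pair as deposited. With the same reading, HSP12, a gene strongly induced by stress, was 7.77 ± 0.54 (SE, n = 3 arrays a group) higher on the log2 scale in W303-1A with ethanol than without (limma, adjusted p = 5.54e-07). Without the turn of sign no gene passed the test between CM1 and W303-1A, although 103 had an unadjusted p under 0.05.

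Single-array values below are log2 ratios to the pool with the fitted dye effect removed, listed for replicates 1, 2 and 3 in that order. Differences are log2, CM1 minus W303-1A, ± the standard error of a limma fit over the 18 arrays, with 3 arrays a group. That fit takes the spread of a gene as equal in every group. The residual SD of the CM1 arrays was 0.34, 0.32 and 0.31 without ethanol and 0.53, 0.61 and 0.46 with it. For W303-1A it was 0.35, 0.42 and 0.35 without and 0.47, 0.35 and 0.36 with ethanol. A fit over only the 9 arrays without ethanol called 197 genes, against 69 in the main fit. A gene was called when its p-value, adjusted by the Benjamini-Hochberg method over all 5650 genes, was under 0.05.

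Without ethanol, 69 genes (1.22 %) were called, 63 of them lower in CM1 (1.12 %) and 6 higher (0.106 %). In all, 679 genes had an unadjusted p under 0.05, and the median difference of all genes was 0.00. Of the 63 lower genes, 57 differed by at least 1 log2 unit and 22 by at least 2. The CM1 and W303-1A arrays did not overlap for any of the 69 genes, as was also true of 23.1 % of all genes. Fits that left out 1 of the 6 arrays called 38 to 61 genes, and the lowest count, 38, came without CM1 replicate 3, and 45 without CM1 replicate 1. In every such fit 36 of the 69 genes passed again, and 33 were lost at least once, 28 lower and 5 higher.

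Genes of glycolysis were lower in CM1 as a group. Of the 17 glycolytic genes measured, 11 were lower in CM1 and none was higher, and the median difference of the list was -2.20, the lowest of the 41 lists read. The arrays of 14 of the 17 were lower without overlap, against 13.3 % of all genes. Of the 20 largest falls in the whole data, 12 were genes of glycolysis or of fermentation, lists that hold 17 and 16 of the 5650 genes. Some of these genes are near-identical in sequence and may share probes, so they are not all separate readings.

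TDH3 (YGR192C), which encodes the main glyceraldehyde-3-phosphate dehydrogenase, had log2 ratios of 0.21, 0.40 and 0.47 in W303-1A and of -2.91, -2.39 and -3.03 in CM1. All 3 CM1 arrays lay more than 2 log2 units under every parent array, and the difference was -3.14 ± 0.27 (8.80-fold lower, adjusted p = 1.13e-05). With the swapped arrays not turned it was -1.06 and not called. CDC19 (YAL038W), the pyruvate kinase of the last step, stood at 0.29, 0.53 and 0.20 in W303-1A and at -2.73, -2.09 and -3.00 in CM1, a difference of -2.95 ± 0.32 (7.71-fold lower, adjusted p = 0.000101). FBA1 (YKL060C), which encodes the aldolase that splits fructose bisphosphate, gave 0.21, -0.48 and 0.27 in the parent and -2.79, -2.57 and -3.07 in CM1. Its difference was -2.81 ± 0.25, 7.03-fold lower (adjusted p = 1.51e-05). TDH2 (YJR009C), a second glyceraldehyde-3-phosphate dehydrogenase gene, gave -0.11, 0.08 and 0.33 in the parent against -2.66, -2.43 and -2.56 in CM1. It had the smallest adjusted p of all genes in the comparison, 3.77e-06, at -2.65 ± 0.19.

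The enolase genes ENO2 (-2.69 ± 0.27) and ENO1 (-2.59 ± 0.27) were lower, as were GPM1, phosphoglycerate mutase (-2.51 ± 0.27), and PGK1, phosphoglycerate kinase (-2.33 ± 0.25). Higher up the pathway PGI1, glucose-phosphate isomerase, differed by -2.20 ± 0.28 and TPI1, triose-phosphate isomerase, by -1.88 ± 0.24. PFK2, a subunit of phosphofructokinase, differed by -1.20 ± 0.22 (adjusted p = 0.0108) and kept its call in 3 of 6 fits with 1 array left out; the other 10 called glycolytic genes kept theirs in all 6. PFK1, the other subunit, had the same difference with a larger error, -1.20 ± 0.31, and was not called (adjusted p = 0.083). TDH1, TDH2 and TDH3 are near-identical in sequence, as are ENO1 and ENO2, so a probe may read more than 1 of them.

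The other members that were not called were 3 genes of glucose phosphorylation, HXK1, HXK2 and GLK1, and 2 minor isoforms, TDH1 and PYK2. HXK2, the main hexokinase of glucose-grown cells, differed by -0.07 ± 0.28, and GLK1, glucokinase, by 0.24 ± 0.25. HXK1, the other hexokinase, had ratios of 0.01, -0.29 and 0.41 in W303-1A and 0.65, 1.88 and 1.02 in CM1. Its arrays were higher without overlap, as for 9.82 % of all genes, but the difference, 1.15 ± 0.34, was not called (adjusted p = 0.156). TDH1 stood at -0.80 ± 0.27 and PYK2, the minor pyruvate kinase, at -0.61 ± 0.31.

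**Figure D1:**
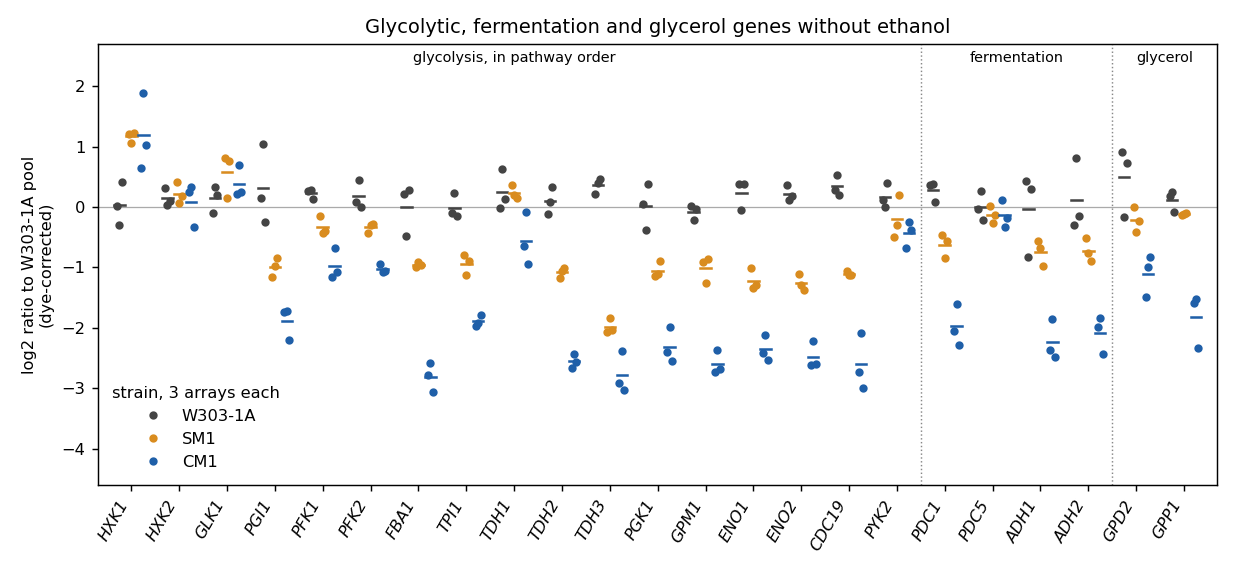
Log2 ratio to the W303-1A pool (vertical axis, dye-corrected) of glycolytic genes in pathway order, then fermentation and glycerol genes, for the 3 arrays of each strain without ethanol; points are arrays and short bars are means. From PGI1 to CDC19 the CM1 points lie under the W303-1A points, with SM1 between them for most genes, while HXK2, GLK1 and PDC5 show no such gap.

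Fermentation genes followed with 4 of 16 members lower, beside 1.12 % of all genes, and none higher (list median -0.64). PDC1, the main pyruvate decarboxylase, gave 0.37, 0.38 and 0.09 in the parent and -2.05, -1.60 and -2.28 in CM1, a difference of -2.26 ± 0.27. ADH1, the alcohol dehydrogenase that forms ethanol, gave 0.43, -0.83 and 0.30 against -2.37, -1.86 and -2.48, a difference of -2.20 ± 0.32. The second W303-1A array stood apart from the others for this gene, yet still above every CM1 array. ADH2, which oxidises ethanol and is near-identical to ADH1, also differed by -2.20 ± 0.32, and the copy measured is uncertain. ALD6, a cytosolic acetaldehyde dehydrogenase, differed by -1.50 ± 0.25. The minor decarboxylase genes PDC5 (-0.14 ± 0.29) and PDC6 (-0.31 ± 0.45) were not called.

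Beside 1.12 % of all genes, 2 of 12 glycerol genes were lower, 1 at each step of synthesis. GPP1, glycerol phosphatase, gave 0.18, 0.25 and -0.09 in W303-1A and -1.59, -1.52 and -2.34 in CM1, a difference of -1.93 ± 0.26. GPD2, a glycerol-3-phosphate dehydrogenase, differed by -1.60 ± 0.34, and its call held in 1 of 6 fits with an array left out. The paralogues were not called, with GPD1 at -0.22 ± 0.25 and GPP2 at -0.18 ± 0.71. Of 26 TCA and glyoxylate cycle genes, 3 were lower: IDH2, a subunit of isocitrate dehydrogenase (-1.51 ± 0.21), CIT2, the peroxisomal citrate synthase (-0.99 ± 0.22), and ACO1, aconitase (-0.92 ± 0.21). The calls of CIT2 and ACO1 held in 0 and 1 of the 6 left-out fits, respectively, with adjusted p reaching 0.179 and 0.192. No gene of trehalose and glycogen metabolism was called (0 of 18 in the limma fit, 2 with an unadjusted p under 0.05, list median -0.01).

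Among the activators of glycolytic genes, looked up after the data had been seen, none was called. GCR1 had ratios of 0.29, 0.94 and -0.01 in W303-1A and of -0.52, -0.66 and -0.84 in CM1, so its arrays did not overlap. Its difference of -1.08 ± 0.26 missed the threshold at an adjusted p of 0.0562. GCR2, RAP1 and TYE7 had adjusted p-values of 0.991, 0.937 and 0.780. Other genes looked up with them were ABF1, CNB1, CRZ1, HSF1, MCM1, PHO4, REG1, REG2, SNF1 and SWI5. None of these was called in the limma fit, and the smallest adjusted p was 0.199, for MCM1.

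In the phosphate regulon, the genes induced when phosphate is scarce, 4 of 26 members were lower and none was higher (list median -0.12). Of all genes, 1.12 % were lower. The 4 were the acid phosphatase genes PHO11 (-2.22 ± 0.29), PHO12 (-2.18 ± 0.31) and PHO5 (-2.14 ± 0.26), whose near-identical sequences may share probes, and PHO8, the vacuolar alkaline phosphatase (-1.03 ± 0.24). PHO5 (YBR093C) gave -0.01, 0.56 and -0.03 in the parent and -2.05, -2.05 and -1.81 in CM1 (4.41-fold lower, adjusted p = 0.000271). The call of PHO8 was lost in every fit with an array left out (adjusted p up to 0.257). PHO84, the high-affinity phosphate transporter of the same regulon, gave 0.48, 1.29 and 0.75 in W303-1A and -0.69, 0.69 and 0.35 in CM1. Its groups overlapped, and its difference of -0.72 ± 0.36 was not called (adjusted p = 0.460).

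Of 40 cell wall genes, 6 were lower, beside 1.12 % of all genes. Of the 40, 30 had a difference below 0 (list median -0.50), as had 2819 of all 5650 genes. CWP1 (YKL096W), a mannoprotein of the wall, gave 0.31, 0.05 and 0.01 in W303-1A against -2.58, -2.54 and -3.08 in CM1. This was a difference of -2.86 ± 0.25, 7.25-fold lower (adjusted p = 1.13e-05). PST1, another surface protein, differed by -1.84 ± 0.31 and the glucanase gene EXG1 by -1.40 ± 0.23. EGT2 (-1.65 ± 0.22) and DSE2 (-1.40 ± 0.21), both of which act when a daughter cell separates from its mother, were lower too. CRH1, which links chitin to glucan, differed by -1.16 ± 0.22 and kept its call in 3 of the 6 left-out fits. YGP1, a secreted glycoprotein listed with general stress genes, gave 0.32, 0.52 and 0.72 against -2.25, -2.21 and -2.32. The 3 CM1 arrays were close to each other, and the difference was -2.78 ± 0.22.

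Of 23 vacuolar genes, 4 were lower: the protease genes PRC1 (-1.38 ± 0.27), APE1 (-1.21 ± 0.25) and PEP4 (-1.05 ± 0.21), and PHO8, counted above. None of the 4 kept its call in more than 2 of the 6 left-out fits. PRB1, another vacuolar protease gene, stood at 0.76 ± 0.24 and was not called. Of 38 iron and copper uptake genes 1 was lower, and of 13 zinc genes 1 was lower, beside 1.12 % of all genes. CTR1, the plasma membrane copper transporter, differed by -2.19 ± 0.26, with ratios of 0.10, 0.50 and 0.68 against -1.65, -1.66 and -1.98. ZRT1, the high-affinity zinc transporter, differed by -1.16 ± 0.21 and kept its call in 5 of the 6 left-out fits.

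W303-1A is of mating type a, and the lists of a-cell and alpha-cell genes were read for that reason. All 8 a-cell genes had differences below 0 (list median -0.63), and 1 was called. Of all 5650 genes, 2819 had a difference below 0. BAR1 (YIL015W), the secreted protease that degrades alpha-factor, gave 0.61, 0.09 and 0.24 in W303-1A and -2.20, -1.92 and -2.63 in CM1. The difference was -2.56 ± 0.48 (adjusted p = 0.0114), and its call held in 3 of the 6 left-out fits. STE2, the alpha-factor receptor, was at -1.43 ± 0.35 (adjusted p = 0.0634), and the pheromone gene MFA1 at -0.36 ± 0.43. None of the 5 alpha-cell genes was called in the limma fit, and 1 had an unadjusted p under 0.05 (list median -0.15).

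**Figure D2:**
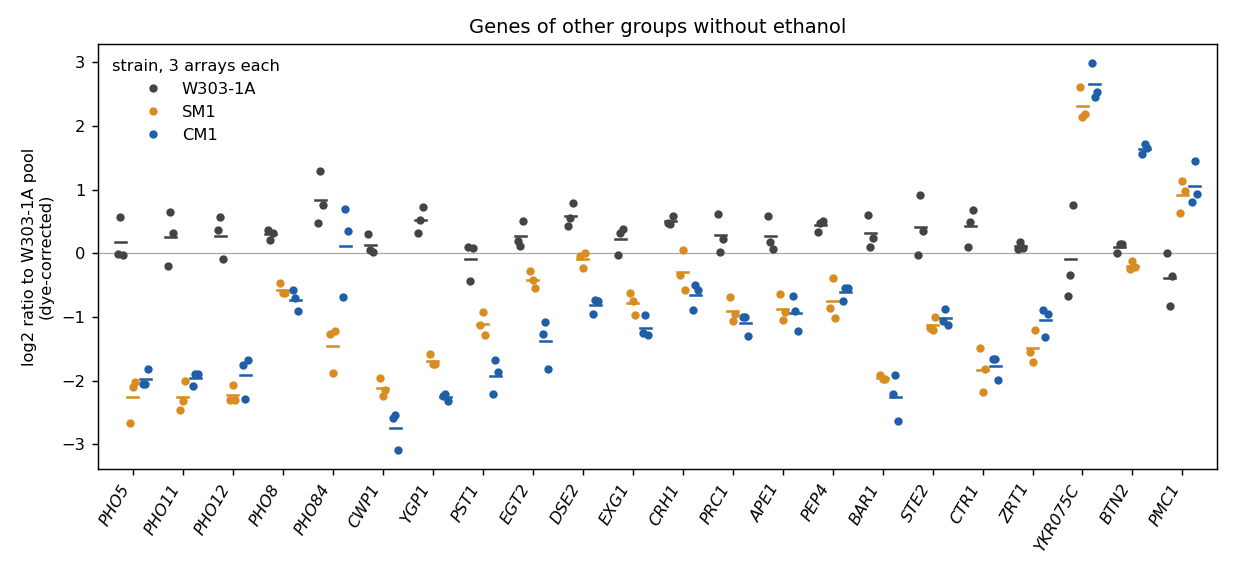
Log2 ratio to the W303-1A pool (vertical axis, dye-corrected) of phosphate, cell wall, vacuolar, a-cell, metal uptake and higher genes for the 3 arrays of each strain without ethanol; points are arrays and short bars are means. CM1 and SM1 points lie side by side for PHO5, CTR1 and YKR075C, while BTN2 is high in CM1 alone.

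Several single genes of other functions were also lower. MRH1, a membrane protein, differed by -2.29 ± 0.26, ARG4, the last enzyme of arginine synthesis, by -1.67 ± 0.22 and ACB1, an acyl-CoA binding protein, by -1.72 ± 0.32. DIP5, a permease for acidic amino acids, gave 0.47, 0.60 and 0.46 in the parent against -0.79, -0.97 and -0.93, a difference of -1.41 ± 0.19. SHM2, a serine hydroxymethyltransferase that feeds one-carbon metabolism, differed by -1.19 ± 0.22. The call of ACB1 held in 2 and that of SHM2 in 3 of the 6 left-out fits, whereas MRH1, ARG4 and DIP5 kept theirs in all 6.

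The 6 higher genes were YKR075C, BTN2, PMC1, PEF1, LAF1 and KAE1. YKR075C gave -0.67, -0.34 and 0.76 in W303-1A and 2.98, 2.45 and 2.54 in CM1. Its difference of 2.74 ± 0.38 (6.68-fold higher, adjusted p = 0.000737) was the only one of the 6 to keep its call in every fit with an array left out. BTN2, which takes part in collecting misfolded proteins, gave 0.01, 0.15 and 0.15 against 1.56, 1.72 and 1.65. The 3 arrays of each strain were close to each other. The difference was 1.54 ± 0.30 (adjusted p = 0.0148). Without any 1 array it ranged from 1.49 to 1.59, at adjusted p-values of 0.0543 to 0.0744. The error in these fits also draws on the arrays with ethanol. There BTN2 gave 0.23, 0.96 and 1.48 in W303-1A and 2.61, 1.96 and 3.05 in CM1, with the dye effect not removed. In the fit over only the 6 arrays compared, BTN2 kept its call. PMC1, the calcium pump of the vacuole (1.46 ± 0.32), PEF1, a calcium-binding protein (1.30 ± 0.30), LAF1 (1.28 ± 0.29) and KAE1, which takes part in tRNA modification (1.02 ± 0.20), kept their calls in 0 to 2 of the 6 left-out fits.

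Large functional groups gave no calls in the limma fit. None of 80 large-subunit and 55 small-subunit ribosomal protein genes was called, with list medians of -0.05 and -0.14 and 4 genes of each list at an unadjusted p under 0.05. The same held for 74 ribosome biogenesis genes (median 0.20, 4 under 0.05 unadjusted) and 38 nuclear respiratory genes (0.25, 8 genes). It held for 31 ergosterol synthesis genes (-0.39, 9 genes) and 34 proteasome genes (-0.06, 2 genes). Of all 5650 genes, 679 had an unadjusted p under 0.05. In the ergosterol list 27 of 31 genes lay below 0, against 2819 of all genes, and 8 of the 9 were lower. Its arrays were lower without overlap for 9 genes, against 13.3 % of all genes. Of the 38 respiratory genes 12 lay below 0, and 11 were higher without overlap, against 9.82 % of all genes. Of 34 heat shock and chaperone genes, BTN2 was the 1 called. HSP12, HSP26 and HSP104, which rise under stress, differed by -0.28 ± 0.54, -0.12 ± 0.46 and 0.56 ± 0.29. CTT1, cytosolic catalase, was at -1.38 ± 0.39 (adjusted p = 0.131). PMA1, the plasma membrane proton pump, was at -1.14 ± 0.46 and OLE1, the fatty acid desaturase, at -0.77 ± 0.48. Of the auxotrophic marker loci, ADE2, TRP1, LEU2, URA3 and CAN1 lay between 0.01 and 0.58 and HIS3 at -0.99 ± 0.29, none of them called.

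**Figure D3:**
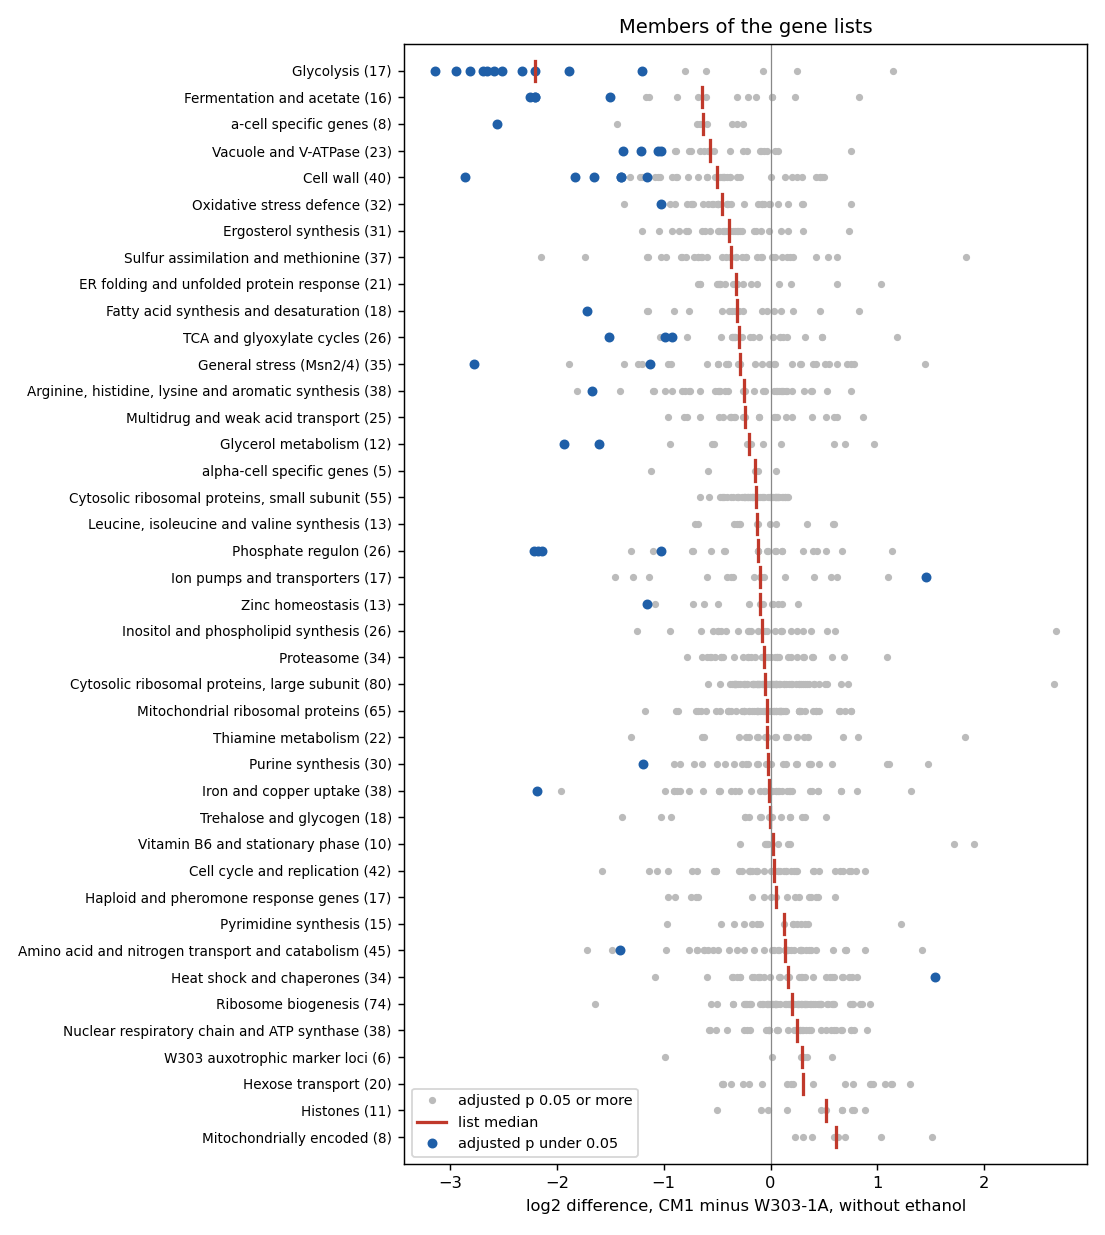
Log2 difference of CM1 minus W303-1A without ethanol (horizontal axis) for the measured members of each gene list, with the number of members in brackets; blue points passed the adjusted p threshold, grey points did not, and the red tick is the list median. Glycolysis has the lowest median, -2.20, and the lists with no blue point include ribosomal proteins, hexose transport and histones.

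CM1 was next compared with SM1, grown in the same way, which shares no culture with it. At 0 % ethanol 57 genes (1.01 %) were called, 11 lower (0.195 %) and 46 higher (0.814 %) in CM1. All 11 genes lower in CM1 than in SM1 were among the 63 lower than in W303-1A. Of the 17 glycolytic genes 6 were lower in CM1 than in SM1: FBA1 (-1.86 ± 0.25, adjusted p = 0.00243), GPM1 (-1.58 ± 0.27), CDC19 (-1.50 ± 0.32), TDH2 (-1.47 ± 0.19), PGK1 (-1.26 ± 0.25) and ENO2 (-1.22 ± 0.27). The other 5 were GPP1 (-1.70 ± 0.26), ADH1 (-1.50 ± 0.32), PDC1 (-1.35 ± 0.27), SHM2 (-1.13 ± 0.22) and DIP5 (-1.03 ± 0.19). With the replicate number as a block, CDC19, ADH1 and ENO2 missed the threshold, at adjusted p-values of 0.0563, 0.0527 and 0.0549. Leaving out 1 array gave 7 to 42 calls, 2 to 10 of them lower in CM1, with the fewest of both without SM1 replicate 1. On the normally labelled arrays alone 0 genes were called, with 269 at an unadjusted p under 0.05. Which of the 11 genes kept their call with an array left out was not read gene by gene.

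The SM1 arrays show where that difference lies. FBA1 gave -0.99, -0.91 and -0.96 in SM1, between the W303-1A and the CM1 arrays. GPP1 gave -0.14, -0.12 and -0.09 there, and SHM2 gave 0.62, 0.49 and 0.46, inside or close to the range of the parent arrays. BTN2, at -0.24, -0.12 and -0.22 in SM1, was 1.84 ± 0.30 higher in CM1 than in SM1 (adjusted p = 0.0072), the 1 of the 6 higher genes called in this comparison. Of the 46 genes higher in CM1 than in SM1, 32 carry only a systematic name. The share of such names among all genes was not counted, so whether this number is unusual was not tested.

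Other genes low or high in CM1 did not differ detectably from SM1. PHO5 differed between the mutants by 0.29 (95 % interval -0.27 to 0.85), CTR1 by 0.06 (-0.49 to 0.61) and YKR075C by 0.34 (-0.47 to 1.16). The interval of BAR1 was wider, -1.32 to 0.73 around -0.30. CWP1 (-0.63, interval -1.15 to -0.10), YGP1 (-0.58, interval -1.04 to -0.11) and TDH3 (-0.79, interval -1.37 to -0.21) were not called at adjusted p-values of 0.644, 0.589 and 0.424, though their unadjusted intervals lay under 0. Set beside the same W303-1A arrays, SM1 differed from the parent by -2.34 for TDH3, -2.43 for PHO5, -2.23 for CWP1 and 2.39 for YKR075C. Called lower in SM1 than in the parent were 7 of 17 glycolytic genes (list median -0.93) and 6 of 26 phosphate genes (-0.44). The same was true of 3 of 8 a-cell genes (-1.13) and of 88 of all 5650 genes.

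Whether the difference between CM1 and W303-1A was itself altered by 6.5 % ethanol was tested as the difference at 6.5 % minus that at 0 %. In all 263 genes (4.65 %) were called, 195 (3.45 %) upward and 68 (1.2 %) downward. Of the 69 genes 24 were among them: 22 of the 63 lower genes moved upward, and ARG4 and ACB1 moved further down. The 6 arrays without ethanol enter both this change and the choice of the 69 genes. In the comparison at 6.5 % ethanol, 24 of the 63 were called lower in CM1 (5.29 % of all genes) and 5 were called higher (6.96 % of all genes), with 12.2 % of all genes called in either direction.

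Of the 17 glycolytic genes, 9 were lower and 1, HXK1, was higher in CM1 at 6.5 % ethanol. The change with ethanol was called upward for 3 and downward for 1, and the genes were not tested against each other. TDH2 differed by -2.76 ± 0.19 at 6.5 % ethanol, ENO1 by -3.14 ± 0.27, ENO2 by -2.94 ± 0.27, and PGK1 by -2.74 ± 0.25, and the change with ethanol was not called for any of these 4. ADH1 (-2.49 ± 0.32) and PDC1 (-2.12 ± 0.27) likewise remained lower at 6.5 %. TDH3 moved from -3.14 to -0.79 ± 0.27 (change 2.35 ± 0.38, adjusted p = 0.0041), CDC19 to -0.96 ± 0.32 (1.99 ± 0.46, adjusted p = 0.0221) and FBA1 to -1.34 ± 0.25 (1.47 ± 0.36, adjusted p = 0.0276). TDH1, not called at 0 %, moved from -0.80 to -2.26 ± 0.27 (change -1.46 ± 0.38, adjusted p = 0.0374).

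The 5 genes that were lower in CM1 at 0 % and higher at 6.5 % ethanol were ALD6 (2.46 ± 0.25 at 6.5 %), ZRT1 (1.94 ± 0.21), ACO1 (1.67 ± 0.21), YGP1 (1.59 ± 0.22) and IDH2 (1.07 ± 0.21). CWP1 (-0.09 ± 0.25), CTR1 (0.22 ± 0.26) and PHO5 (0.65 ± 0.26) were not called at 6.5 % ethanol. YKR075C (2.26 ± 0.38) and BTN2 (1.65 ± 0.30) were higher in CM1 at 6.5 % as well. The number of genes with a called change depended on single arrays, falling to 98 without CM1 replicate 3 at 0 % and to 130 without W303-1A replicate 2 at 0 %, and rising to 577 without CM1 replicate 1 at 6.5 %.

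**Figure D4:**
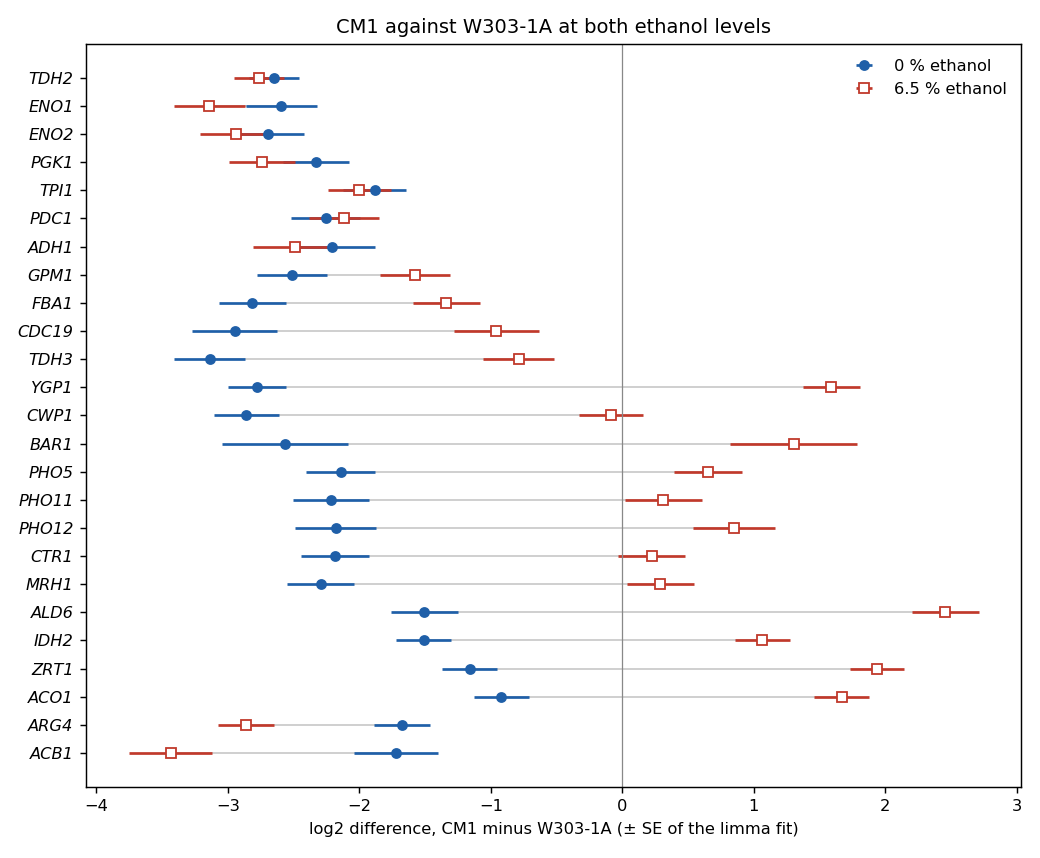
Log2 difference of CM1 minus W303-1A (horizontal axis) at 0 % ethanol (filled blue circles) and 6.5 % ethanol (open red squares) for named genes, with bars of 1 SE of the limma fit. TDH2, ENO1, ENO2, PGK1 and PDC1 keep both marks near -2 to -3, whereas YGP1, ALD6, ZRT1, ACO1 and IDH2 pass from below to above 0.

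Ratios on all arrays drifted smoothly along the probe number, which follows chromosome position. Chromosome medians of the CM1 minus W303-1A difference ran from -0.27 on chromosome XVI to 0.16 on chromosome IV, and from -0.14 to 0.06 once the drift was removed. With it removed 62 genes were called, 57 of the 69 among them, and the glycolysis median was -2.35.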

How the data were processed

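The authors deposited 1 normalized log ratio per probe and array; it is read here as log2, since base, centring and direction are not stated by the deposited table, and scanner files were not used. Per the labels, each of the 18 two-colour arrays set a culture against the W303-1A pool in AlexaFluor dyes, with replicate 1 swapped. Some values are exactly 0, as for GAP1, SNZ1 and LAF1 on SM1 replicate 2 at 6.5 % ethanol. GAP1 stood at -3.16 and -2.94 on the other SM1 arrays at that level. Whether such a 0 stands for a missing value was not tested, and it entered the fit as given. Of 6368 probes, 5673 had 1 gene symbol in the platform annotation and 695 had none; 23 genes with 2 probes were averaged, leaving 5650.

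Swapped arrays were turned in sign. limma 3.58.1 (R 4.3.3) fitted group means and a dye term to all 18 arrays, with 11 residual degrees of freedom. The script was tested on simulated data with independent arrays and the same spread of a gene in every group. That test therefore does not bear on unequal spread or on correlated arrays. Every group holds 1 swapped and 2 normal arrays, so the dye term does not move a difference. Arrays have no read depth; their number limits precision. The labels state separate cultures. Alternatives in arrays, dye, sign, scaling, drift, weights and probes were tried.

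Deviations of same-numbered CM1 and SM1 arrays correlated at r = 0.41, 0.11 and 0.23, and those of CM1 and W303-1A arrays at 0.04, 0.03 and 0.10. No correlation was computed between arrays of different number, so whether same-numbered arrays are paired was not tested. The genes named were the 15 largest rises and falls, the 4 members of each of 41 lists with the smallest p, and a fixed set; PGI1, PFK2, TPI1, PST1, CRH1, GCR1, GCR2, RAP1, TYE7, PFK1, TDH1, PYK2, HXK1, HXK2, GLK1, PDC5, PDC6, GPP2, PRB1, HXT4 and the further called genes were added after their values were seen. ABF1, CNB1, CRZ1, HSF1, MCM1, PHO4, REG1, REG2, SNF1 and SWI5 were looked up as well. Members and lists were chosen with earlier results of these data known.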

Additional observations from a re-analysis of the deposited data

Results flagged for a closer look

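For 24 genes called between CM1 and W303-1A without ethanol, the difference was tested to change with 6.5 % ethanol (interaction term of the limma fit). Of all genes, 4.65 % had a called change. The arrays without ethanol enter both the change and the choice of these genes, which favours an upward change for genes chosen as lower. The values are log2, difference at 6.5 % minus difference at 0 %, and no explanation was tested. The change was upward for YGP1 (4.369), ALD6 (3.962), BAR1 (3.866), ZRT1 (3.098), PHO12 (3.032), PHO5 (2.795), CWP1 (2.772), ACO1 (2.589), MRH1 (2.582), IDH2 (2.577), PHO11 (2.528), CTR1 (2.411) and TDH3 (2.35). It was smaller for RBD2 (2.046), CDC19 (1.989), DSE2 (1.794), SHM2 (1.73), YNL115C (1.653), FBA1 (1.475), TCB3 (1.364), CRH1 (1.336) and EGT2 (1.275). ARG4 (-1.189) and ACB1 (-1.716) moved further down.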

How the results depend on the processing

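Counts are of called genes, with higher and lower in brackets, and the cause of a shift was not tested. Between CM1 and W303-1A (69; 6 and 63, so 8.7 % higher), a fit over the 9 arrays without ethanol gave 197 (40 and 157, 20.3 % higher), quantile normalization 268 (73 and 195, 27.2 %), array weights 360 (104 and 256, 28.9 %) and CM1 against the pool alone 148 (37 and 111, 25 %). Normally labelled arrays alone gave 55 (12 and 43, 21.8 %). A fit over only the 6 arrays compared gave 67 (5 and 62, 7.46 %), with 45 of the 69 among them. Of the higher genes it lost PMC1, PEF1, LAF1 and KAE1, at limma adjusted p-values of 0.0601 to 0.160. The lower genes it lost included GPD2, CIT2, ACO1, PHO8, ZRT1, SHM2, PEP4 and PFK2. Genes it called that the main fit did not included HIS4, SAM3, MET16 and CHA1. No dye term gave 42 (2 and 40). With the replicate number as a block, 60 genes were called (3 and 57). With swapped arrays not turned the count was 0 (0 and 0), 103 at an unadjusted p under 0.05, and no glycolytic gene was called (0 of the 11). In the other settings run, 10 to 12 glycolytic genes were called lower. Leaving out 1 array gave 38 to 61 (1 to 8 and 37 to 53), with 10 to 11 glycolytic genes. All 69 genes kept their sign in every setting.

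Between CM1 and SM1 (57; 46 and 11), no dye term gave 31 (26 and 5), quantile normalization 154 (104 and 50) and array weights 273 (164 and 109). Arrays not turned gave 0 and normally labelled arrays alone 0, with 32 and 269 genes at an unadjusted p under 0.05. The replicate block gave 41 (33 and 8). Leaving out 1 array, added after seeing the data, gave 7 to 42 (5 to 32 and 2 to 10). The change with ethanol (263; 195 and 68) went to 74 (61 and 13) with no dye term, 1 (1 and 0) not turned, 445 (299 and 146) on normally labelled arrays, 150 (124 and 26) after quantile normalization, 167 (133 and 34) with the probe trend removed and 518 (345 and 173) with array weights. The replicate block gave 239 (176 and 63), and leaving out 1 array, also added later, 98 to 577 (74 to 397 and 24 to 180). The block changed no other call that the text gives between the mutants.

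Some uncalled named genes changed sign. Not turned: OLI1 -0.33, HSP150 0.15, THI13 -0.017, IMD4 -0.18, PCL9 0.14, RPN1 0.052, PDI1 0.098, MF(ALPHA)2 0.31, RME1 0.083, HSP12 0.37, HSP26 0.33, GPD1 0.22 and PHO84 0.055. Normally labelled arrays alone: MF(ALPHA)2 0.12, HSP12 0.068 and HSP26 0.16. Quantile: PDX3 -0.026 and CAN1 -0.033. Trend removed: CAN1 -0.096. Array weights: SAG1 0.054. Against the pool: ATP6 -0.0020, COX1 -0.29, RSM27 -0.26, THI20 -0.031, PDX3 -0.35, ILV5 0.32, ILV1 -0.17, CLN2 0.056, ADE2 -0.011, TPS1 -0.029, PHO84 0.12, ENA1 -0.12 and TRP1 -0.040. Leaving out 1 array: MF(ALPHA)2 -0.41 to 0.024, SAG1 -0.50 to 0.16, HSP26 -0.29 to 0.18, CAN1 -0.067 to 0.14, PDX3 -0.019 to 0.40 and TRP1 -0.0096 to 0.73.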

Other observations

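Of 20 genes of hexose transport and its regulators none was called in the limma fit. Their median difference was 0.31 and 7 of the 20 lay below 0. Of the 20, 7 had an unadjusted p under 0.05, all of them higher, against 679 of all 5650 genes in either direction. With no overlap of arrays, 8 of the 20 were higher in CM1, against 9.82 % of all genes. HXT3, a low-affinity glucose transporter, gave -0.31, 0.57 and -0.03 in W303-1A and 1.25, 0.81 and 1.57 in CM1 (1.13 ± 0.31, adjusted p = 0.105). HXT4 was at 1.30 ± 0.50, HXT2 at 0.94 ± 0.29 and MTH1, which keeps HXT genes repressed when glucose is low, at 1.13 ± 0.39, all log2 differences ± SE of the fit with 3 arrays a group. The HXT genes resemble each other in sequence, so probes may share signal.

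Of 11 histone genes 0 were called in the limma fit, and 5 had an unadjusted p under 0.05, against 679 of all 5650 genes. Of the 11, 7 were higher without overlap of arrays, against 9.82 % of all genes. The list median was 0.52, and 3 of the 11 genes lay below 0, the lowest at -0.50. HTB2 was at 0.89 ± 0.29 and HTA2 at 0.78 ± 0.24. Of 37 sulfur assimilation and methionine genes none was called (list median -0.37). At an unadjusted p under 0.05, 11 of them were lower, against 441 of all 5650 genes. CHA1, which breaks down serine and threonine, was at 1.42 ± 0.35 (adjusted p = 0.0636).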
